A study of Mus musculus with 3 samples.

Results

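The genes described here encode receptors for products of the microbiota and of host metabolism: Fpr1, Fpr2, Ffar2, Hcar2, Gpr84, Gpr35, Gpr65, Gpr183, Sucnr1 and Ahr. They were chosen by symbol, all 10 were found among the 24346 gene symbols measured, and all 10 reached 1 FPKM (fragments per kilobase of transcript, scaled to library depth) in at least 1 library. RNA sequencing had been done on colonic cells of healthy BALB/c mice for which no treatment is given, with 1 library each of Gr-1+ CD11b+ cells, labelled as neutrophils and monocytes, of CD64- dendritic cells (DC) and of CD64+ macrophages. The labels give no age, sex or number of mice and do not say whether animals were pooled. With 1 library per population no difference has a replicate check, so no test or p-value is given. A gene is called higher or lower below by a size rule alone, a difference of 2 or more on the log2(FPKM + 1) scale with at least 10 FPKM in the library where it is higher. That scale understates differences of low genes. In sorted bulk RNA, fewer cells of a type and less RNA per cell cannot be told apart.

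Formyl peptides are released by bacteria and by damaged mitochondria, and FPR1 and FPR2 are the receptors that direct neutrophils to them through Gi proteins. Other receptors of the set sense short-chain fatty acids, ketone bodies and niacin, medium-chain fatty acids, protons, oxysterols or succinate at the cell surface. AhR differs from the rest, being a transcription factor in the cytosol that moves to the nucleus when it binds ligands such as tryptophan metabolites from diet and microbes.

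The libraries differed in depth and in background, which sets how low a value can be read. Steps in the FPKM of single-transcript genes put the depth of the DC and macrophage libraries at 3.59 and 2.67 times that of the Gr-1+ CD11b+ library. The 95th percentile of 1452 olfactory and vomeronasal receptor genes, which colonic myeloid cells should not use, was 9.69 FPKM in the Gr-1+ CD11b+ library, 0.611 in DC and 3.24 in macrophages, and is called the silent-gene level here. Markers of the labelled cell types were checked. All 11 neutrophil markers that reached 1 FPKM were highest in the Gr-1+ CD11b+ library, 9 of 12 dendritic cell markers in DC and 12 of 12 macrophage markers in macrophages. Although the Gr-1+ CD11b+ cells are labelled as neutrophils and monocytes, 1 of 8 monocyte markers was highest there, 1 in DC and 6 in macrophages. The DC library also held the highest level of 12 of 12 B and plasma cell markers, and the Gr-1+ CD11b+ library that of 11 of 12 epithelial markers.

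Each population had a different leading receptor gene. Fpr1 and Hcar2 together made up most of the summed level of the 10 genes in the Gr-1+ CD11b+ library, at 51.3% and 28.0% of 2745 FPKM. In DC the sum was 240.1 FPKM, and Gpr183 led it with 39.9%, ahead of Gpr65 with 16.8% and Gpr35 with 12.8%. Macrophages had a sum of 761 FPKM, spread more evenly, with Gpr35 at 24.0%, Gpr65 at 22.7%, Gpr84 at 12.6% and Fpr1 at 12.1%. These shares are taken within a library and do not depend on how libraries are scaled to each other.

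**Figure D1:**
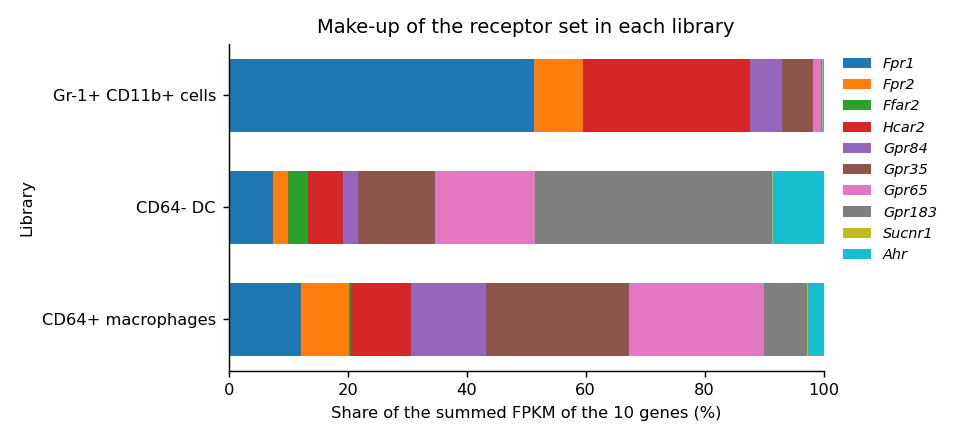
Share of each gene in the summed FPKM of the 10 receptor genes (horizontal axis, %), 1 bar per library. Fpr1 and Hcar2 fill most of the Gr-1+ CD11b+ bar at 51.3% and 28.0%, Gpr183 leads the DC bar at 39.9%, and Gpr35 and Gpr65 lead the macrophage bar at 24.0% and 22.7%.

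Counted by the size rule, 5 of the 10 genes were higher in the Gr-1+ CD11b+ library than in DC and 1 was lower, where 3.65% of the 17329 genes that reached 1 FPKM in some library were higher and 6.28% lower. The median difference of the 10 was 1.93, against 0.01 over all 17329 genes. Between the Gr-1+ CD11b+ library and macrophages 2 were higher and 2 lower, beside 1.41% and 3.41% of all genes, with medians of 0.42 and 0.10. Between DC and macrophages 0 were higher and 6 lower, beside 1.53% and 2.31% of all genes, with medians of -2.18 and -0.05. These comparisons share libraries and are not independent of each other.

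**Figure D2:**
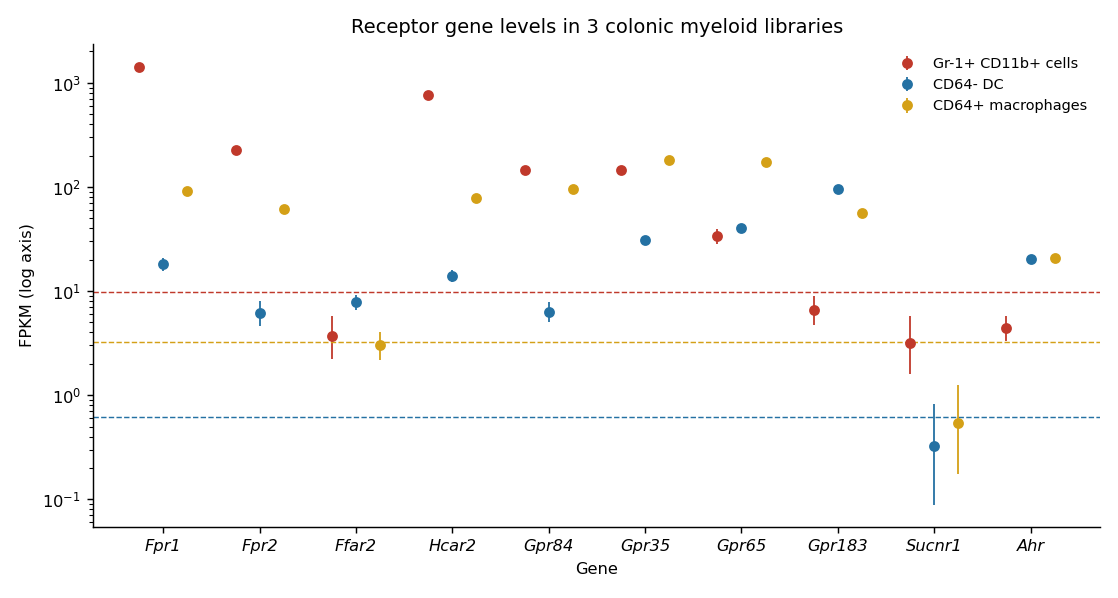
FPKM (log axis) of each receptor gene in each library, with approximate 95% Poisson intervals that cover counting error only. Dashed lines give the silent-gene level of the library of that colour, 9.69 FPKM for Gr-1+ CD11b+ cells, 0.611 for DC and 3.24 for macrophages; Ffar2, Gpr183, Sucnr1 and Ahr lie below the line in the Gr-1+ CD11b+ library, Ffar2 and Sucnr1 in macrophages and Sucnr1 in DC.

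Both formyl peptide receptor genes were highest in the Gr-1+ CD11b+ library. Fpr1, whose receptor binds bacterial N-formyl peptides with high affinity, was at 1407 FPKM in the Gr-1+ CD11b+ library, 18.0 in DC and 92.1 in macrophages. It was higher in the Gr-1+ CD11b+ library than in both other libraries, with log2 differences of 6.21 from DC and 3.92 from macrophages, and lower in DC than in macrophages at -2.29. That last value was -1.92 with libraries scaled to the same sum and -1.87 with a pseudocount of 10, both short of the rule. Fpr2, whose receptor has a broader range of peptide and lipid ligands, was at 226 FPKM in the Gr-1+ CD11b+ library, 6.11 in DC and 61.3 in macrophages. Its difference of 4.99 between the Gr-1+ CD11b+ library and DC and of -3.13 between DC and macrophages passed the rule. The difference from macrophages in the Gr-1+ CD11b+ library, 1.86, fell short of it and was 2.44 with median-ratio scaling and 2.46 with equal 75th percentiles. Fpr1 exceeded Fpr2 in each library, by 6.24 times in the Gr-1+ CD11b+ library, 2.94 in DC and 1.503 in macrophages. The balance of these paralogs thus differed between the libraries, on a scale that needs no normalization between them.

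Both genes lie on mouse chromosome 17 in head-to-head order. Fpr1 occupies 17876471 to 17883940 on the minus strand and Fpr2 17887824 to 17893952 on the plus strand (GRCm38, GENCODE M21), so that their start sites are 3884 bp apart and point away from each other. Their RefSeq upstream sequences are shown because these neighbours were both among the 3 highest receptor genes of Gr-1+ CD11b+ cells. Each is the 250 bases before the start site, read 5′ to 3′ on the strand of its gene, at chr17:17883940-17884189 for Fpr1 and chr17:17887574-17887823 for Fpr2 (GRCm38.p6).
Fpr1: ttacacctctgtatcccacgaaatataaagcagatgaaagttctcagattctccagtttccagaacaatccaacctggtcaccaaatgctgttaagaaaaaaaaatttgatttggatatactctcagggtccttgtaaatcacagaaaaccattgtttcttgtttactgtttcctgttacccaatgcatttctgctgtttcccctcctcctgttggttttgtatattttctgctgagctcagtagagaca
Fpr2: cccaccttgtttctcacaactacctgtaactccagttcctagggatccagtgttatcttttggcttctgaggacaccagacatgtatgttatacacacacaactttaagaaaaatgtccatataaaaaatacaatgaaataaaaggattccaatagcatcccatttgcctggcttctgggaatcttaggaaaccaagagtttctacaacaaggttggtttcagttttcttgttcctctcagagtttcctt
Neither holds GAGGAAGT, letters bound by the myeloid factor PU.1, or TTGCNNAA, letters bound by C/EBP factors, on either strand. Of 32851 upstream windows of the same length, 2.44% hold the first and 9.56% the second. RefSeq gave 12 windows for 8 of the 10 receptor genes, since some genes have more than 1. Of these windows 0 held GAGGAAGT and 4 held TTGCNNAA, in 2 genes, Ffar2 and Gpr183.

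Sequence shared between paralogs bears on the Fpr2 value. Of the 50-base words of the longest Fpr2 transcript, 33.9% also occur in the transcript of Gm5966, which is not among the symbols measured, and 7.10% in Fpr3. Of those of Fpr1, 1 of 1275 occurs in Fpr2. Fpr3 was at 5.49 FPKM in the Gr-1+ CD11b+ library, 0.328 in DC and 2.17 in macrophages, and lay below the silent-gene level of its library in each case. How the authors' counting divided fragments among these genes was not given in the sources used here, so the Fpr2 value is uncertain.

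Neutrophil markers followed the same order as Fpr1 and Fpr2. The summed level of the 12 markers was 177928 FPKM in the Gr-1+ CD11b+ library, 2414 in DC and 6006 in macrophages. Elane was listed at 0 in every library and Camp in DC and macrophages. In DC the neutrophil markers stood at a median of 1.17% of their Gr-1+ CD11b+ level, up to 12.2%, where Fpr1 stood at 1.28%, Hcar2 at 1.83%, Fpr2 at 2.71% and Gpr84 at 4.33%. In macrophages the markers stood at a median of 3.71%, up to 26.7%, where Fpr1 stood at 6.54%, Hcar2 at 10.1%, Fpr2 at 27.2% and Gpr84 at 65.2%. Gpr84 in macrophages thus exceeded every neutrophil marker, while Fpr2 at 27.2% was about level with the highest of them at 26.7%. The part of neutrophil RNA in the values of DC and macrophages was not tested.

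**Figure D3:**
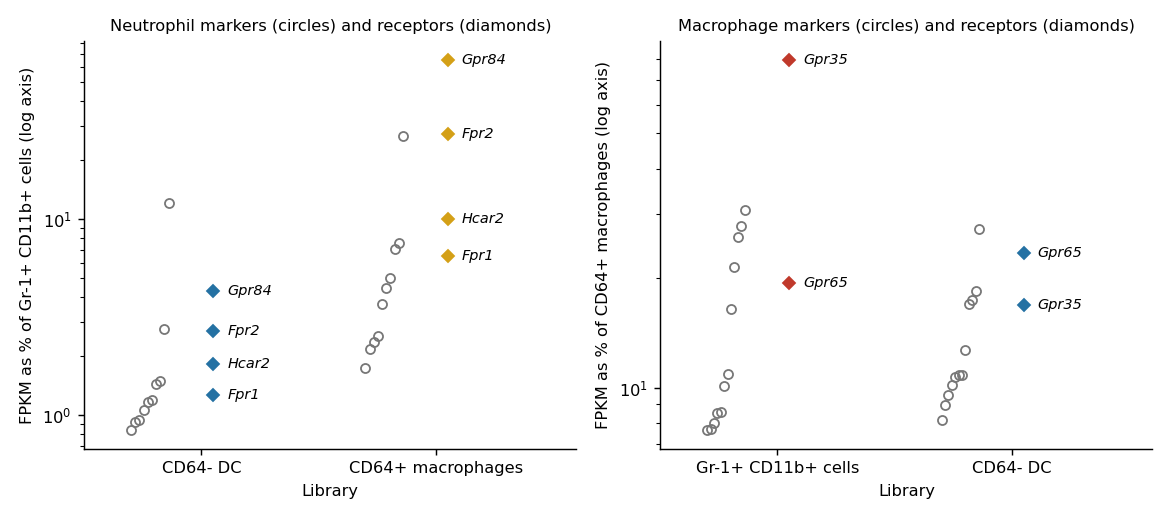
Left, level in DC and macrophages as a percentage of the level in the Gr-1+ CD11b+ library (log axis) for neutrophil markers (circles, those above 0) and 4 receptor genes (diamonds). Right, level in the Gr-1+ CD11b+ library and DC as a percentage of the level in macrophages for 12 macrophage markers and 2 receptor genes; Gpr35 in the Gr-1+ CD11b+ library, at 79.6%, lies above all markers, which reach 30.8%.

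Of 9 other phagocyte receptor genes for peptides and lipids, 7 were highest in the Gr-1+ CD11b+ library, 1 in DC and 1 in macrophages. By the rule 7 of the 9 were higher there than in DC and 0 lower, beside 3.65% and 6.28% of all genes. The medians were 3.63 for the 9 and 0.01 for all genes. Against macrophages 2 were higher and 1 lower, beside 1.41% and 3.41% of all genes, with medians of 0.999 and 0.10. The 1 lower was C3ar1, a complement receptor gene named after its values were seen, at 13.2 FPKM in the Gr-1+ CD11b+ library against 113 in macrophages. Between DC and macrophages 0 were higher and 4 lower, beside 1.53% and 2.31% of all genes, with medians of -1.99 and -0.05. C5ar1, the receptor gene for complement C5a, was at 1212 FPKM in the Gr-1+ CD11b+ library, 35.1 in DC and 462 in macrophages. Ccr1, a receptor gene for CC chemokines, was at 548, 43.2 and 339 FPKM in the same libraries, and Cxcr2, the receptor gene for CXC chemokines that attract neutrophils, at 497, 7.47 and 18.4. The related Cxcr1 was at 23.0 FPKM in the Gr-1+ CD11b+ library, 0.121 in DC and 0.961 in macrophages. Cxcr2 is also on the list of neutrophil markers.

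Genes of endogenous FPR2 ligands were highest in the Gr-1+ CD11b+ library for 5 of 6. Anxa1, which encodes the glucocorticoid-induced protein annexin A1, was at 1382 FPKM in the Gr-1+ CD11b+ library, 137 in DC and 237 in macrophages, and was higher than in both by the rule. Camp, the cathelicidin gene, was at 11.3 FPKM in the Gr-1+ CD11b+ library, close to the silent-gene level, and was listed at 0 in the other libraries. App, the amyloid precursor gene, was at 155, 28.6 and 143 FPKM in the Gr-1+ CD11b+ library, DC and macrophages. Of the serum amyloid A genes, Saa3 was at 198 FPKM in the Gr-1+ CD11b+ library, 80.0 in DC and 324 in macrophages, Saa1 at 48.2, 36.7 and 14.8, and Saa2 at 5.98, 0.278 and 0. Saa1 and Saa2 are close paralogs and their values are uncertain. Each Saa2 value lay below the silent-gene level of its library. In all, 3 of the 6 were higher in the Gr-1+ CD11b+ library than in DC and 2 than in macrophages. The shares of all genes were 3.65% and 1.41%. Camp, counted in both, is also on the list of neutrophil markers. Of the 6, 2 were lower in DC than in macrophages, beside 2.31% of all genes. With equal sums 0 of them were lower in DC than in macrophages.

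Of the receptor genes for short-chain acids, Hcar2 was highest in the Gr-1+ CD11b+ library and Ffar2 was low in each library. Hcar2 encodes the receptor GPR109A for butyrate, the ketone body beta-hydroxybutyrate and niacin. It was at 769 FPKM in the Gr-1+ CD11b+ library, 14.0 in DC and 77.4 in macrophages, and was higher in the Gr-1+ CD11b+ library than in DC by 5.68 and than in macrophages by 3.30 on the log2 scale. Its difference of -2.38 between DC and macrophages also passed the rule, and did so under each of 3 scalings, but was -1.86 with a pseudocount of 10. Hcar2 lies on chromosome 5 at 123863570 to 123865499 on the minus strand, and 0 of its 1881 50-base words occur in another annotated gene. Epithelial cells of the colon also use Hcar2. The 12 epithelial markers stood in the Gr-1+ CD11b+ library at 186% to 478% of their macrophage level and Hcar2 at 994%; the part of epithelial RNA in the Hcar2 values was not tested. Its relative Hcar1, the lactate receptor gene, was named after its values were seen and was at 0.128, 0.0359 and 0.0948 FPKM in the 3 libraries, always under the silent-gene level.

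Ffar2 encodes GPR43, the receptor for acetate and propionate. It was at 3.72 FPKM in the Gr-1+ CD11b+ library, 7.81 in DC and 3.01 in macrophages, and exceeded the silent-gene level in DC alone. About 19 fragments lay behind the Gr-1+ CD11b+ value, with an approximate 95% Poisson interval of 2.24 to 5.81 FPKM, and about 144 behind that of DC, with 6.59 to 9.198. The macrophage value had an interval of 2.16 to 4.08 FPKM. The DC interval overlapped neither of the others in counting error, but the differences of -0.90 between the Gr-1+ CD11b+ library and DC and 1.14 between DC and macrophages did not reach the rule. In Gr-1+ CD11b+ cells a level below 9.69 FPKM could not be told from background, so Ffar2 was not detectable there rather than absent. Ffar2 lies on chromosome 7 at 30818348 to 30823775 on the minus strand. Ffar4, a receptor gene for long-chain fatty acids, was at 7.02, 2.06 and 1.73 FPKM in the Gr-1+ CD11b+ library, DC and macrophages, and Ffar1 was at 2.40 in DC and listed at 0 in the others.

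Of 11 further receptor genes measured for formyl peptides, fatty acids, hydroxy acids and bile acids, 0 exceeded the silent-gene level in the Gr-1+ CD11b+ library, 5 did in DC and 1 in macrophages. That 1 was Cmklr1, the receptor gene for chemerin, at 1.05 FPKM in the Gr-1+ CD11b+ library, 0.753 in DC and 14.8 in macrophages. It was the single gene of the 11 that passed the rule in any comparison, lower in both Gr-1+ CD11b+ cells and DC than in macrophages. In these comparisons 3.41% and 2.31% of all genes were lower.

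Gpr84 was high in both Gr-1+ CD11b+ cells and macrophages and low in DC. The gene encodes a receptor for medium-chain fatty acids that inflammatory stimuli induce in myeloid cells. It was at 147 FPKM in the Gr-1+ CD11b+ library, 6.34 in DC and 95.5 in macrophages. The differences were 4.33 between the Gr-1+ CD11b+ library and DC and -3.72 between DC and macrophages, both past the rule, and 0.61 between the Gr-1+ CD11b+ library and macrophages. The last ranged up to 1.21 under other scalings. Gpr84 lies on chromosome 15 at 103308235 to 103310612 on the minus strand. Of its 50-base words, 37.8% occur on the opposite strand in Gm49482, which is not among the symbols measured, and whether the libraries kept strand is not given in the sources used here.

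Gpr35 and Gpr65 had their highest values in macrophages. Gpr35, a receptor gene of the gut that responds to tryptophan metabolites such as kynurenic acid, was at 145 FPKM in the Gr-1+ CD11b+ library, 30.8 in DC and 183 in macrophages. It was higher in the Gr-1+ CD11b+ library than in DC at 2.201 and lower in DC than in macrophages at -2.53. With equal sums the first was 1.84 and with a pseudocount of 10 it was 1.93, both short of the rule. The difference of -0.33 between the Gr-1+ CD11b+ library and macrophages was 0.25 with median-ratio scaling and 0.27 with equal 75th percentiles, so the order of these libraries for Gpr35 turned with the scaling. Epithelial cells of the gut also use Gpr35. The summed level of 12 epithelial markers was 1465 FPKM in the Gr-1+ CD11b+ library, 698 in DC and 427 in macrophages, an order unlike that of Gpr35, and their part in its values was not tested. Gpr35 lies on the plus strand of chromosome 1, at 92950865 to 92986391.

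Gpr65 encodes a proton-sensing receptor of leukocytes that acts through Gs. It was at 33.4 FPKM in the Gr-1+ CD11b+ library, 40.3 in DC and 172 in macrophages. The difference from macrophages was -2.33 for Gr-1+ CD11b+ cells and -2.07 for DC, and both passed the rule. With median-ratio scaling the first was -1.76, with equal 75th percentiles -1.74, and with equal sums the second was -1.69, so neither call held under every scaling. The second was also lost with a pseudocount of 10, at -1.86. Between the Gr-1+ CD11b+ library and DC the difference of -0.26 turned to 0.50 with median-ratio scaling and 0.49 with equal 75th percentiles. Relative to Gpr35 in the same library, Gpr65 was the lower gene in the Gr-1+ CD11b+ library, where Gpr35 was 4.35 times as high, and about level in macrophages, where the ratio was 1.06. In DC the ratio was 0.765. Gpr65 lies on the plus strand of chromosome 12, at 98268635 to 98276644, and 18.1% of its 50-base words occur on the opposite strand in Gm47566, which is not among the symbols measured.

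Macrophage markers were likewise highest in macrophages. Their summed level was 2848 FPKM in the Gr-1+ CD11b+ library, 3489 in DC and 29244 in macrophages, and none of the 12 was at 0 in any library. The markers stood at 7.64% to 30.8% of their macrophage level in the Gr-1+ CD11b+ library, where Gpr65 stood at 19.4% and Gpr35 at 79.6%. In DC they stood at 8.17% to 27.3%, where Gpr65 stood at 23.4% and Gpr35 at 16.9%. The part of macrophage RNA in the Gr-1+ CD11b+ and DC values was not tested. Among the relatives of Gpr65, Gpr132, a receptor gene linked to lysolipids and oxidized fatty acids, was at 34.9, 35.9 and 56.7 FPKM in the Gr-1+ CD11b+ library, DC and macrophages. The proton receptor gene Gpr4 was at 1.03 FPKM in the Gr-1+ CD11b+ library, 3.92 in DC and 1.04 in macrophages. Neither Gpr132 nor Gpr4 passed the rule in any of the 3 comparisons.

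Gpr183 was the leading receptor gene of DC. It encodes EBI2, which guides dendritic cells and B cells along gradients of the oxysterol 7alpha,25-dihydroxycholesterol. It was at 6.65 FPKM in the Gr-1+ CD11b+ library, 95.9 in DC and 55.5 in macrophages. The first of these did not exceed the silent-gene level. Gr-1+ CD11b+ cells were lower than DC by the rule, at -3.66, and lower than macrophages, at -2.89, and both calls held under each of 3 scalings, while the second was -1.98 with a pseudocount of 10. The difference of 0.78 between DC and macrophages did not reach the rule. Gpr183 lies on chromosome 14 at 121952551 to 121965195 on the minus strand, and 0 of its 2675 50-base words occur in another annotated gene.

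B and plasma cell markers were also highest in DC, with a summed level of 687 FPKM in the Gr-1+ CD11b+ library, 24059 in DC and 1437 in macrophages, and none of the 12 at 0. Relative to DC these markers stood at 2.24% to 23.6% in macrophages, where Gpr183 stood at 57.9% and Ffar2 at 38.5%. They stood at 0.835% to 23.1% in the Gr-1+ CD11b+ library, where Gpr183 stood at 6.93% and Ffar2 at 47.6%. Whether B cell RNA gave part of the DC values of Gpr183 and Ffar2 was not tested.

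Enzymes that make and break the GPR183 ligand were low or led by macrophages. Ch25h, which adds the 25-hydroxyl group to cholesterol, was at 3.46 FPKM in the Gr-1+ CD11b+ library, 1.65 in DC and 7.04 in macrophages. Cyp7b1, which adds the 7alpha-hydroxyl group, was at 2.22, 4.80 and 0.746. Hsd3b7, which converts the ligand further, was at 9.06 FPKM in the Gr-1+ CD11b+ library, 18.7 in DC and 46.8 in macrophages, and Cyp27a1, a sterol 27-hydroxylase, at 8.23, 24.2 and 65.9. By the rule, 2 of the 4, Hsd3b7 and Cyp27a1, were lower in the Gr-1+ CD11b+ library than in macrophages, and Cyp27a1 alone with median-ratio or 75th percentile scaling. In this comparison 3.41% of all genes were lower as deposited. None of the 4 exceeded the silent-gene level in the Gr-1+ CD11b+ library.

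Sucnr1, the succinate receptor gene, was not detectable above background in any library. It was at 3.20 FPKM in the Gr-1+ CD11b+ library, 0.325 in DC and 0.537 in macrophages, from about 11, 4 and 5 fragments. Each value lay below the silent-gene level of its library, and the approximate intervals were 1.59 to 5.72, 0.0885 to 0.831 and 0.174 to 1.25 FPKM. The highest value belonged to the library with the highest silent-gene level. Sucnr1 lies on the plus strand of chromosome 3, at 60081869 to 60087566. The subunit genes of succinate dehydrogenase, the enzyme that consumes succinate in mitochondria, were well above background. Sdha was at 73.8, 142 and 121 FPKM in the Gr-1+ CD11b+ library, DC and macrophages, and Sdhb at 129, 216 and 299.7. Sdhc was at 29.8, 54.5 and 76.7 FPKM and Sdhd at 142, 135 and 237, and 0 of the 4 passed the rule.

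Ahr was at 4.40 FPKM in the Gr-1+ CD11b+ library, 20.4 in DC and 20.6 in macrophages. The values of DC and macrophages had intervals of 19.1 to 21.8 and 19.1 to 22.2 FPKM, which overlap. The Gr-1+ CD11b+ value lay below the silent-gene level of 9.69. Its differences of -1.988 from DC and -1.997 from macrophages stopped just short of the rule, whose limit on the log2 scale is 2. These values moved with the processing. The difference from DC passed with equal sums, at -2.33, and was -1.30 with median-ratio scaling and -1.31 with equal 75th percentiles; that from macrophages was -1.96, -1.496 and -1.48 with these 3 scalings. With a pseudocount of 0.1 they were -2.19 and -2.20, with a pseudocount of 10 they were -1.08 and -1.09, and with the silent-gene level subtracted they were -4.38 and -4.20. The difference between DC and macrophages was -0.01. Ahr lies on chromosome 12 at 35497974 to 35535038 on the minus strand, and 1.42% of its 50-base words occur on the opposite strand in Gm48236, which is not among the symbols measured.

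**Figure D4:**
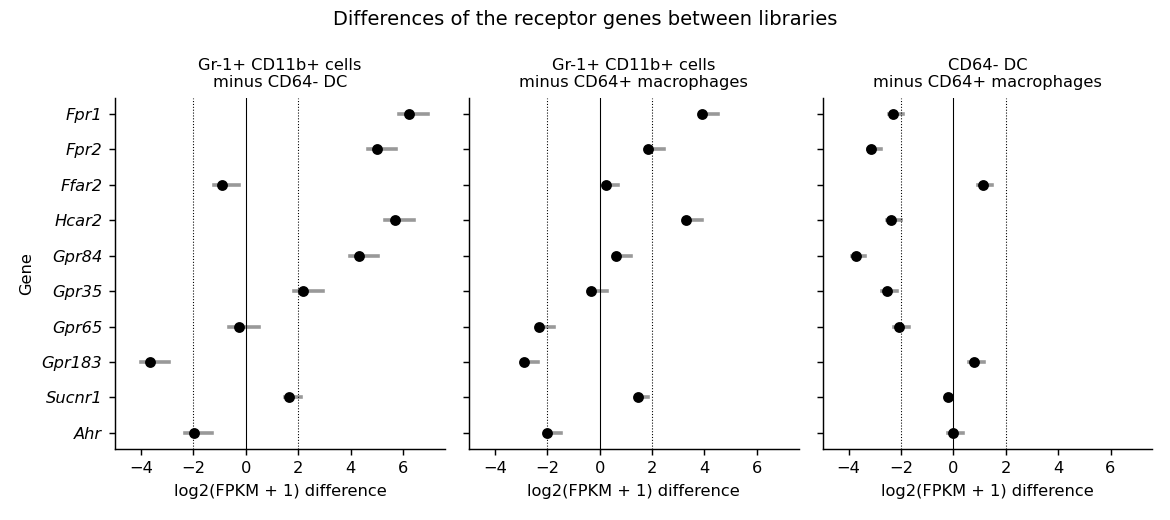
Differences on the log2(FPKM + 1) scale for each receptor gene in 3 comparisons. Points are the values as deposited, grey bars span these and 3 scalings, and dotted lines mark the limit of 2; Ahr lies on the line against both other libraries in the Gr-1+ CD11b+ library, at -1.988 and -1.997.

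Of the partners that hold AhR in the cytosol, 1 passed the rule. Hsp90ab1, an HSP90 chaperone gene, was at 133 FPKM in the Gr-1+ CD11b+ library, 601 in DC and 426 in macrophages, and its difference of -2.17 from DC passed. With median-ratio or 75th percentile scaling it did not. In that comparison 6.28% of all genes were lower as deposited. Ptges3, the gene of the co-chaperone p23, was at 21.97, 69.2 and 60.9 FPKM. Arnt, the dimer partner of AhR in the nucleus, was named after its values were seen and was at 15.4, 14.9 and 16.8 FPKM in the Gr-1+ CD11b+ library, DC and macrophages.

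Of 6 AhR target genes, Tiparp and Nqo1 exceeded the silent-gene level in at least 1 library. Tiparp, a target that ADP-ribosylates AhR and is also induced by other signals, was at 99.4 FPKM in the Gr-1+ CD11b+ library, 35.9 in DC and 78.1 in macrophages. Its difference of 1.45 between the Gr-1+ CD11b+ library and DC did not reach the rule as deposited and did with median-ratio or 75th percentile scaling. The ratio of Tiparp to Ahr was 22.6 in the Gr-1+ CD11b+ library, 1.75 in DC and 3.80 in macrophages; the first rests on an Ahr value within the background. Ahrr, the gene of the AhR repressor, was at 1.92, 0.341 and 1.03 FPKM, and Cyp1a1 and Cyp1b1 did not exceed 0.481 FPKM in any library. Cyp1a2 was at 0.235 FPKM in the Gr-1+ CD11b+ library and listed at 0 in the others. None of these 4 exceeded the silent-gene level in any library. Nqo1, a quinone reductase gene also induced by oxidative stress, was at 7.07 FPKM in the Gr-1+ CD11b+ library, 2.80 in DC and 3.81 in macrophages, and exceeded the level of silent genes except in the Gr-1+ CD11b+ library. Nqo1 and Cyp1a2 were named after their values were seen.

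The core letters to which AhR and ARNT bind, GCGTG, were searched on both strands in the 250 bases before the start sites of Tiparp, Ahrr, Cyp1a1, Cyp1b1 and the receptor genes. All 4 targets searched held it. So did 1 of the 12 windows of 8 receptor genes, in Ffar2, and 28.2% of the 32851 windows. The windows of Tiparp, chr3:65528197-65528446 on the plus strand, and Ahrr, chr13:74292332-74292581 on the minus strand (RefSeq, GRCm38.p6), are shown because Tiparp lay well above the silent-gene level and Ahrr below it. Capitals mark GCGTG or its complement, and matches of different motifs did not overlap.
Tiparp: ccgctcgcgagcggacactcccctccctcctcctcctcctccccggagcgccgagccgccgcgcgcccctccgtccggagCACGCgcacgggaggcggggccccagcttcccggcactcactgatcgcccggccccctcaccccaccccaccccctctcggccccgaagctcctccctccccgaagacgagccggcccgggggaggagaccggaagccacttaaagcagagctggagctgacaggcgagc
Ahrr: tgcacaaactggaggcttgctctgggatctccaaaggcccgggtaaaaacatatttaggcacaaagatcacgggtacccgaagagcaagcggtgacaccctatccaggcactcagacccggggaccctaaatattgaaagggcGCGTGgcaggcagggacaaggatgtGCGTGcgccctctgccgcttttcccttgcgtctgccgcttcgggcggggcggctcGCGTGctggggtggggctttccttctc
Tiparp held 1 match and Ahrr 3.

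Some products of the kynurenine route of tryptophan are ligands of AhR or GPR35. Enzymes of this route were highest in DC for 7 of the 9 that reached 1 FPKM. The list holds steps that form such ligands and steps that use up their precursors, and no ligand was measured. Kmo, the kynurenine 3-monooxygenase gene, was at 3.62 FPKM in the Gr-1+ CD11b+ library, 48.1 in DC and 19.5 in macrophages, and was lower in the Gr-1+ CD11b+ library than in both by the rule. Haao, which acts further down the route, was at 13.7, 74.3 and 12.4 FPKM, and was higher in DC than in macrophages at 2.49, a call that held under each of 3 scalings. Kynu was at 2.48, 9.30 and 8.88 FPKM and Ido2 at 3.66, 0 and 0.416. Of 10 genes, 2 were lower in the Gr-1+ CD11b+ library than in DC and 1 than in macrophages. With median-ratio or 75th percentile scaling these counts were 1 and 0. Of all genes, 6.28% and 3.41% were lower in these comparisons as deposited. The silent-gene level was exceeded by 1 of the 10 in the Gr-1+ CD11b+ library, 7 in DC and 3 in macrophages. The Gr-1+ CD11b+ values of Kmo, Kynu and Ido2 lay below it. Ido1, the entry enzyme that interferon induces, was named after its values were seen and was at 1.22, 4.47 and 0.225 FPKM in the Gr-1+ CD11b+ library, DC and macrophages.

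**Figure D5:**
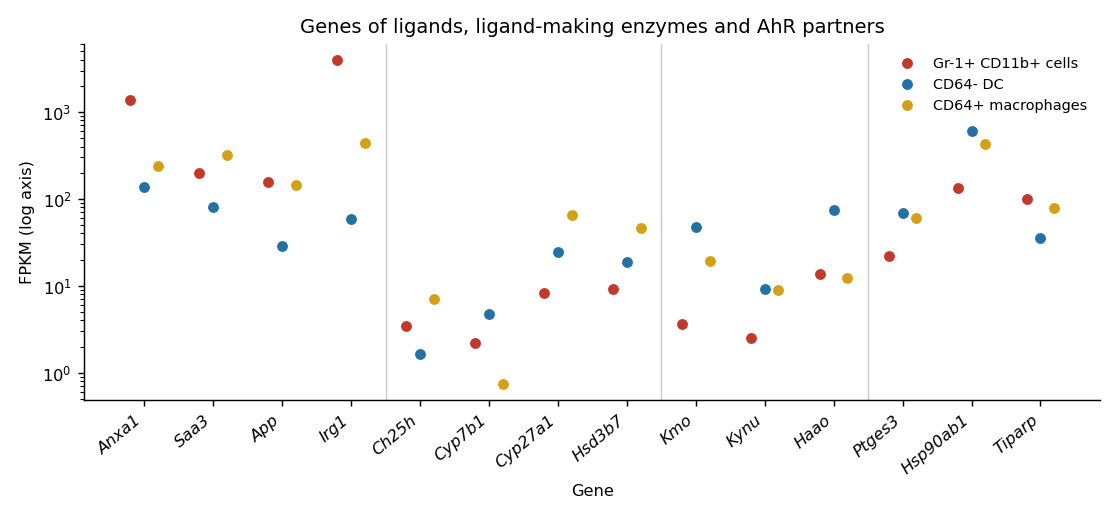
FPKM (log axis) in each library of FPR2 ligand genes, Irg1, oxysterol enzymes, kynurenine enzymes, AhR partners and the target Tiparp. Grey lines split these into 4 blocks. The first block holds FPR2 ligand genes and Irg1, the second the oxysterol enzymes, the third the kynurenine enzymes and the fourth AhR partners and Tiparp; Anxa1 is highest in the Gr-1+ CD11b+ library at 1382 FPKM and Haao in DC at 74.3.

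The genes most like each receptor gene were sought among 121 genes of the pathway and marker lists with 10 FPKM or more, by the distance between log2(FPKM + 1) profiles centred over the 3 libraries. With 3 libraries such likeness is coarse. Fpr1 was nearest to Csf3r, the G-CSF receptor gene, at a distance of 0.21, and 2 of all 7087 genes at 10 FPKM or more lay as close. Hcar2 was nearest to Irg1, the gene of the itaconate-making enzyme, at 0.35, as close as 5 genes of all. Fpr2 was nearest to C5ar1 at 0.42, as close as 15, and Gpr84 to Ccr1 at 0.60, as close as 20. Gpr35 was nearest to Vcan at 0.17, as close as 7. Gpr65 was nearest to Fn1 at 0.37, as close as 67 genes of all, and Gpr183 to Cd209a, a C-type lectin gene of dendritic cells, at 0.17, as close as 7. Ahr was nearest to Hsp90ab1 at 0.36, as were 412 genes. These counts include the named nearest gene itself. The Gr-1+ CD11b+ values of Vcan, Fn1, Gpr183 and Ahr lay below the silent-gene level.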

How the data were processed

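Per the labels' protocols, RNA came from an RNeasy extraction, SMART-Seq HT gave the cDNA and Nextera the libraries. Each deposited table lists gene symbols with the authors' FPKM. The submitters' processing notes name Cufflinks 2.2.1, SAMtools 0.1.19, TopHat2 2.0.13 and Bowtie2 2.2.3, with the mm10 build. Annotation, filters, pooling and strand are not given in the sources used here; genes that overlap on opposite strands therefore cannot be told apart. Abundant transcripts lower the FPKM of all others: the 10 highest genes held 33.5% of the sum in the Gr-1+ CD11b+ library, 15.0% in DC and 22.2% in macrophages.

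Values were used as deposited, with a pseudocount of 1. Coordinates and lengths came from GENCODE M21 (GRCm38), which holds 23310 of the 24346 symbols. The files give no counts. Depth was estimated from FPKM times length over 3550 single-transcript genes longer than 800 nt; low values between 0.5 and 4.5 multiples of 1 fragment lay within 0.2 of a whole multiple in 69.1%, 74.2% and 67.2% of cases in the Gr-1+ CD11b+ library, DC and macrophages. On 1 kb of transcript, 1 fragment was worth 0.447, 0.124 and 0.167 FPKM in that order. Each worth was the value, of a range tried, that made this share highest, so the shares are no independent check of depth. Evenly spread values would also meet the 0.2 limit in part. Fragment numbers and Poisson intervals use the longest transcript, are approximate and cover counting error only, since amplified fragments are not independent molecules.

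The members, gene lists, size rule and silent-gene measure were chosen with earlier results of these data known, and motifs other than GCGTG after the values were seen. Named genes were all 10 receptor genes, every gene of lists of up to 6 except 1 that is not reported here, the 3 highest and 3 most different of longer lists, and the AhR targets whose promoters were searched; any others are marked. The rule was checked on simulated data. Alternatives were 2 pseudocounts, 2 floors, 2 log2 limits, 3 scalings and subtraction of the silent-gene level; list counts under the scalings were added after seeing the data. A planned comparison of the FPR1 and FPR2 proteins was not made here. Sequences are from RefSeq (GRCm38.p6). Python 3.11.15, NumPy 2.4.6, pandas 2.3.3, SciPy 1.17.1 and matplotlib 3.10.9 were used.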

Additional observations from a re-analysis of the deposited data

How the results depend on the processing

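No paired analysis was possible because each population has 1 library. Across 10 alternatives and 30 differences of the receptor genes, 263 of 300 recomputed values kept their direction and their side of the rule, 4 that had not passed it came to 0 with the silent-gene level subtracted (Sucnr1 in each comparison, and Ffar2 in that of Gr-1+ CD11b+ cells with macrophages), 17 no longer passed it, 10 newly passed it and 6 reversed in sign. The 2 floors and 2 log2 limits left each value itself unchanged, so under them only its side of the rule could change. The reversals concerned differences that never passed the rule. For Gpr65 between the Gr-1+ CD11b+ library and DC they were 0.50 with median ratios and 0.49 with equal 75th percentiles. For Gpr35 between the Gr-1+ CD11b+ library and macrophages they were 0.25 and 0.27. For Ahr between DC and macrophages they were 0.36 with equal sums and 0.18 with the silent-gene level subtracted. The scalings shift every gene before the pseudocount, by -0.37 with equal sums, 0.78 with median ratios and 0.77 with equal 75th percentiles between the Gr-1+ CD11b+ library and DC. Between the Gr-1+ CD11b+ library and macrophages the shifts are 0.02, 0.58 and 0.60, and between DC and macrophages 0.39, -0.20 and -0.17. The count of receptor genes past the rule between the Gr-1+ CD11b+ library and macrophages was 4, and 2 with a log2 limit of 3. Between DC and macrophages it was 6, and 2 with that limit and 3 with a pseudocount of 10, which lowers the differences of low genes by construction. The other counts lay within 1.5 times the main one. Values below the silent-gene level, highest in the shallowest library, limit what can be said of Ffar2, Gpr183, Sucnr1 and Ahr in the Gr-1+ CD11b+ library.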

Other observations

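Of 10 genes of G alpha subunits, the G proteins through which such receptors signal, 0 passed the size rule between the Gr-1+ CD11b+ library and DC or between DC and macrophages, and 1, Gna12, was lower in the Gr-1+ CD11b+ library than in macrophages, at 6.62 against 34.4 FPKM. Over all genes, 3.65% were higher and 6.28% lower in the Gr-1+ CD11b+ library than in DC, 1.41% and 3.41% than in macrophages, and 1.53% and 2.31% in DC than in macrophages. The Gna12 call was lost with median-ratio and 75th percentile scaling. Gnai2, the main Gi subunit gene of leukocytes, was at 418 FPKM in the Gr-1+ CD11b+ library, 294 in DC and 429 in macrophages. Gnas, the Gs subunit gene, was at 115, 311 and 195 FPKM in the same libraries. Of 16 effector and regulator genes, 1 passed the rule in any comparison as deposited. It was Rgs1, a brake on Gi signalling, at 44.2 FPKM in the Gr-1+ CD11b+ library, 154 in DC and 572 in macrophages, lower in the Gr-1+ CD11b+ library than in macrophages under each of 3 scalings. Rac2, a GTPase of neutrophil migration, was at 713, 330.4 and 238 FPKM, and Arrb2, the beta-arrestin 2 gene that ends receptor signalling, at 40.9, 13.5 and 45.4. Grk6, a receptor kinase gene, was at 38.9 FPKM in the Gr-1+ CD11b+ library, 101 in DC and 30.6 in macrophages. With median-ratio or 75th percentile scaling, Arrb2 was also higher in the Gr-1+ CD11b+ library than in DC, Rac2 was higher there than in macrophages, and Rgs1 was lower in DC than in macrophages. With equal sums, Grk6 was higher in DC than in macrophages and Rgs1 lower in the Gr-1+ CD11b+ library than in DC.

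Irg1, whose product makes itaconate and which was the listed gene nearest to Hcar2, was at 3952 FPKM in the Gr-1+ CD11b+ library, 59.4 in DC and 439 in macrophages. It passed the size rule in all 3 comparisons under each of 3 scalings. The remaining marker lists were monocyte genes, at a summed 1728 FPKM in the Gr-1+ CD11b+ library, 1688 in DC and 3630 in macrophages, T, NK and innate lymphoid genes, at 34.0, 245 and 91.9, eosinophil and mast cell genes, at 37.3, 129 and 29.95, and fibroblast and endothelial genes, at 387, 402 and 213.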
